A study of Mus musculus with 18 samples.

Results

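Stretches of the mouse genome that are rich in CpGs are mostly unmethylated, and these data hold a minority that were methylated and lay away from gene starts. The genome was divided into bins of 500 bp. A bin was included if it was autosomal, held at least 40 distinct cytosine positions over the 18 libraries, had at least 30 calls of which at least 60% were methylated in the pooled 7 control libraries of days 1 to 9, and lay more than 5 kb from any annotated gene start. Because each strand of a CpG is listed as its own position, 40 positions correspond to 20 CpGs. In all, 3689 bins passed, of 37947 autosomal bins with that many positions and of 4318839 autosomal bins with any call. The control level of days 1 to 9 chose the bins, so that level and its distance to Dnmt1 KO at those days are given as a description without a test.

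Methylation was read by whole-genome bisulfite sequencing (WGBS-seq), in which unmethylated cytosine is converted and each read over a CpG gives a call. The 18 libraries were mouse embryonic stem cells (ESCs), of which 9 were control, labelled as wild type, and 9 were Dnmt1 KO. For each genotype there was a pair of libraries from each of days 1, 3, 9 and 11 and a single library from day 6. The methods describe floxed Dnmt1 cells of the C57BL/6 strain in serum with LIF, in which tamoxifen switched on Cre, whereas the labels give E14 as the strain of all libraries. Whether control was the floxed line without deletion is therefore unclear, and a difference between genotypes and a difference between lines cannot be told apart. The series describes its replicates as biological. SDs and permutation p-values over days 3 to 11 rest on the spread between libraries, which mixes differences between days with those between replicates. The main test of single bins used a common dispersion, so a p-value there does not measure the spread of its own bin.

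DNMT1 copies methylation onto the new strand after replication, and without it a CpG can be methylated afresh only by the de novo methyltransferases DNMT3A and DNMT3B. CpG islands at gene starts are usually free of methylation, while CpG-dense sequence elsewhere, such as long coding exons and retrotransposon ends, is commonly methylated in ESCs. Sequences with the letters TGCCGC, methylated at the CpG, are bound by the zinc finger protein ZFP57, which protects imprinted regions from demethylation.

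Before the values, 5 stretches show what such bins look like in the NCBIM37 genome, each being the 300 bases with most CpGs of its bin or run of bins. They are written 5′ to 3′ on the plus strand with the CpGs in capitals. The bins in Lrrc8a were the first-ranked run of adjacent single-copy bins, and those in Lrrc8b and Lrrc8d were added, after their values were seen, because related genes held runs of the same length. Lrrc8 genes encode subunits of the volume-regulated anion channel, and these stretches are coding exon without UTR. The stretch from chr2:30111713-30112012 has 21 CpGs.
Lrrc8a: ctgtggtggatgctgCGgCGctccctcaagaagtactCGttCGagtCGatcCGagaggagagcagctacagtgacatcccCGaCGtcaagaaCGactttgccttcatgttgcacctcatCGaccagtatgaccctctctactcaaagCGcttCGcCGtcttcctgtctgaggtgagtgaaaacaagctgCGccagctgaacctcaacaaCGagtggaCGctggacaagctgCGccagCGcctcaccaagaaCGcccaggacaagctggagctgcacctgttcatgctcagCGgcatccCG
The stretch of Lrrc8b, chr5:105909950-105910249, also has 21 CpGs, and that of Lrrc8d, chr5:106242369-106242668, has 22.
Lrrc8b: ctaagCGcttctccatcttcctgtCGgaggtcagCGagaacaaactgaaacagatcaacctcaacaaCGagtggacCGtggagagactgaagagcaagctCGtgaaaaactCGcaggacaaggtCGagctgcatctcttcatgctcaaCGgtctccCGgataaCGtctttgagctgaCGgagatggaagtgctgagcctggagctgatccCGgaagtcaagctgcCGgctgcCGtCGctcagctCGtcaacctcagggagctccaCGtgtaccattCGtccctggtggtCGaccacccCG
Lrrc8d: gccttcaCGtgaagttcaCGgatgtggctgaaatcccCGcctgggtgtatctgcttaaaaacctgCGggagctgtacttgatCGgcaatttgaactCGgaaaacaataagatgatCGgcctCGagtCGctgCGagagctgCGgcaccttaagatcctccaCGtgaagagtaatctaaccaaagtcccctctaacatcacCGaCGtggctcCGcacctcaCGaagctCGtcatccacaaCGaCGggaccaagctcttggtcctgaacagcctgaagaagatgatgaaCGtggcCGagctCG
Among single-copy bins with at least 40 calls at days 9 and 11 of Dnmt1 KO, the bin at chr6:100075000-100075499 had the highest level there. It is intergenic, 162 kb from the nearest gene start, that of the Polycomb protein gene Rybp, and its CpGs stand mostly in a short tandem repeat at one end.
Intergenic bin on chromosome 6: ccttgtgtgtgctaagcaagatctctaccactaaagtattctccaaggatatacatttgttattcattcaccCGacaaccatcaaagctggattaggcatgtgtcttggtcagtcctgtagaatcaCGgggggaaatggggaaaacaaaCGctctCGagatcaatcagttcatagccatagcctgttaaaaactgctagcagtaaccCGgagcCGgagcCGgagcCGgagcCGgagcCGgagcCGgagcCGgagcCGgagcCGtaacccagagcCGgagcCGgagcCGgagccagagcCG
The bin at chr6:85144000-85144499 ranked lowest of the single-copy bins outside UTRs with as many calls, where ties at 0% were ordered by number of calls. It covers 217 bases of an exon of Emx1, a homeobox gene of the developing forebrain, 6568 bp from the gene's start.
Emx1: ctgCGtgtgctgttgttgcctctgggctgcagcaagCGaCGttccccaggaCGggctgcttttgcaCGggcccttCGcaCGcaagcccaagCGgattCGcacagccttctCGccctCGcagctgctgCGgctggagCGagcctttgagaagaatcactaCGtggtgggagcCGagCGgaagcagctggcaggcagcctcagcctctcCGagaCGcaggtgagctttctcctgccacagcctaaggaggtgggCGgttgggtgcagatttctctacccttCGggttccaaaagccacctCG

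The bins held a median of 44 cytosine positions, from 40 to 118, and had a median of 60 control calls. Their median control level was 87.3%, with quartiles at 78.2% and 93.2%. Of 8958 dense bins with enough control calls lying over 5 kb from a start, 41.2% were at 60% or more, compared with 3.27% of 26873 dense bins nearer to a start. Of the 3689 bins, 2029 lay inside a gene and 1660 were intergenic. Exon sequence of at least 50 bases was present in 1316 bins, 470 of them exonic throughout, and 707 were intronic. The median distance to a gene start was 28.7 kb. Each annotated gene counted with 1 start. With the distance taken to every annotated transcript start, 3199 bins passed, of which 893 were exonic. Sequence was called repeated where the median 32-base word of the bin occurred at least 2 times in the genome, which held for 1412 bins, and the other 2277 are called single copy.

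Repeated and single-copy bins occupied different places. Of the repeated bins 77.5% were intergenic and 15 held exon sequence, whereas 24.8% of single-copy bins were intergenic and 1301 held exon sequence. By shared 32-base words, 1135 of the repeated bins fell into a single family spread over all 19 autosomes, with a median of 72 copies per word. The next families had 71 and 52 bins. These families could not be named here, because no repeat annotation was used. In the largest, 70.9% of bins held TGCCGC (searched on both strands), against 24.5% of single-copy bins. Over all bins the share was 37.7%, close to the 35.1% of every autosomal bin with at least 40 positions, and above the 3.31% of all autosomal bins with calls.

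In the control libraries of days 1 to 9 between 83.2% and 86.6% of the calls in the 3689 bins were methylated. At day 11, which had no part in choosing the bins, control stood at 78.8% and 79.2%. The lower level at day 11 was not particular to these bins. Over all autosomal calls control was at 74.5% to 78.7% at days 1 to 9 and at 70.6% and 70.7% at day 11. Dnmt1 KO was at 77.8% and 78.3% at day 1, 40.5% and 40.3% at day 3, and 28.5% at day 6 (95% exact interval 28.0% to 28.9%, 38356 calls). It was at 27.6% and 30.04% at day 9 and at 27.2% and 28.3% at day 11. Thus the libraries of days 3 to 11 all lay below those of day 1, the pairs differed by at most 2.4 points, and the libraries of days 6 to 11 overlapped. The level at day 3 was 51.8% and at day 11 35.6% of the level at day 1.

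**Figure D1:**
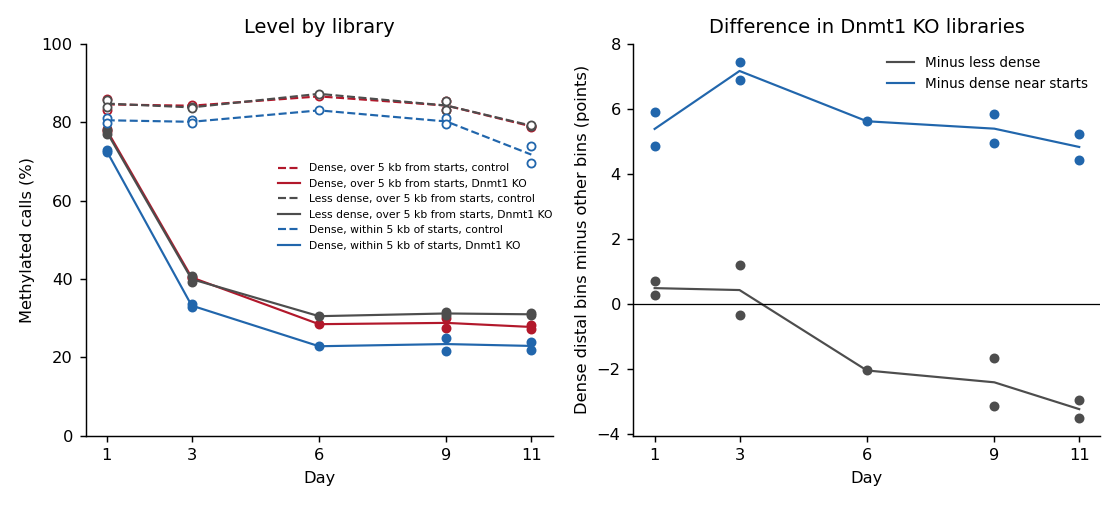
Left, percent of methylated calls by day in dense distal bins (red), less dense distal bins (grey) and dense bins near gene starts (blue), each point a library and lines joining day means, dashed for control. Right, dense distal bins minus each other class in the Dnmt1 KO libraries, in percentage points. The red and grey curves run together until day 3, and from day 6 the difference lies between -3.50 and -1.67 points.

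Within Dnmt1 KO, days 3 to 11 were lower than day 1 by 46.3 points (fell in 7 of 7 libraries, two-sided exact permutation over 9 libraries, p = 0.028, the smallest that 36 arrangements can give). With the replicate number as a block the exact p was 0.05, and without either library of day 1 it was 0.125, the smallest p those arrangements allow, while the difference stayed between -47.7 and -45.5 points with any single library left out.

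Single bins were tested with a quasi-binomial model fitted to all autosomal bins with at least 10 calls on each side. Of the 3689 bins, 2543 could be tested for days 6 to 11 against day 1 of Dnmt1 KO. At an adjusted p under 0.05 (Benjamini-Hochberg) and a change of at least 10 points, 1819 of them (71.5%) were lower and 3 were higher. With limma on the percentages 1132 were lower, and with at least 20 calls on each side, which fewer bins reach, 984 were. The background was 45.4 percent called lower of 383735 bins tested, which include bins with little methylation to lose. Among 111399 tested bins of 10 to 39 positions chosen by the same limits on control and distance, 53.5% were lower. The dense bins had more calls, a median of 21 at day 1 and 39 later against 13 and 20 in all tested bins and 14 and 23 in the less dense ones, and the part of depth in these shares was not tested. Their median difference was -51.4 points, compared with -44.7 points for all tested bins and -48.1 points for the less dense ones. Without Dnmt1 KO day 1 replicate 1 the number lower was 1004, and without replicate 2 it was 875. With limma, with at least 20 calls or without a library, the share of all bins called lower was not counted. Those numbers therefore give no comparison with the background.

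Against control of the same day, 1738 of the bins could be tested at day 11. There, 1084 of them (62.4%) were lower and 1 was higher in Dnmt1 KO, against a background of 33.3 percent called lower of 147817 bins and 44.6% of 46910 less dense bins chosen alike. Methylation in control was what chose the bins, so the distance to the background of all bins is no result about them. The median calls on each side were 20 and 20 in the dense bins and 14 and 14 in the less dense ones, and the median difference was -52.9 points, compared with -50 points in the less dense bins. With at least 20 calls on each side 358 were lower. Leaving out any of the 4 libraries gave 497 to 550, the fewest without control day 11 replicate 1, followed by 513 without the second Dnmt1 KO library, 548 without the second control library and 550 without the first Dnmt1 KO library. For day 11 too, the share of all bins called lower was not counted with at least 20 calls or without a library. Both tests took 1 dispersion for all bins. With a prior for the dispersion set by density, and separately for bins with little methylation, added after the data were seen, the median dispersion was 2.40 in the dense bins and 1.59 in all bins for the first comparison. The parts of density and of methylation level in this gap were not told apart. The numbers lower were then 1573 (61.9%, against 46.8 percent of all bins and 52.1% of the less dense) and 834 (48.0%, against 33.6 percent and 43.2%), with none higher in either comparison.

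**Figure D2:**
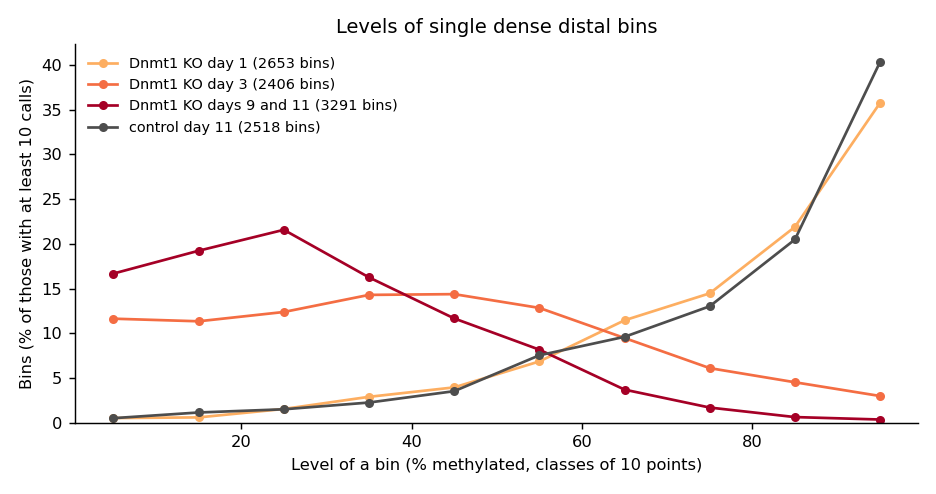
Distribution of the level of single dense distal bins in classes of 10 points, as a percent of the bins with at least 10 calls, for pooled Dnmt1 KO day 1, day 3, days 9 and 11, and control day 11. The day 1 and control day 11 curves peak at the upper end, and the curve of days 9 and 11 peaks between 10% and 40%.

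Single bins varied widely at every stage, on few calls each. At day 1 of Dnmt1 KO the median bin was at 83.3% with quartiles at 67.9% and 93.1% (2653 bins with at least 10 calls), and in control at day 11 at 84.6%. At day 3 the median was 40% with quartiles at 21.1% and 57.1%. At days 9 and 11 together it was 26.1% with quartiles at 14.3% and 40% (3291 bins). In these 4 libraries 211 bins (6.41%) were at 60% or more, and 574 (17.4%) were at 10% or less. Across 1431 bins the level at day 9 and at day 11 had a Pearson r of 0.20 and a Spearman rho of 0.21. These points rest on at least 10 calls each, which often come from the same read, and bins are not independent replicates.

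Dense distal bins were then set beside less dense ones, which had 10 to 39 positions and otherwise met the same limits (286663 bins). At day 1 of Dnmt1 KO the less dense bins were at 77.1% and 77.97%, within 0.7 points of the dense ones. From day 6 they were at 30.5% to 31.7%, and the dense bins were below them in each of these 5 libraries. Over days 3 to 11 the mean difference was -1.78 points ± 1.70 (SD, n = 7, lower in 6 of 7 libraries, two-sided exact sign-flip permutation p = 0.047, adjusted p = 0.109 over 7 such comparisons). It was 1.19 points in Dnmt1 KO day 3 replicate 1, the library in which the dense bins were higher. Among bins at 80% or more in control the mean difference was -0.69 points (exact permutation p = 0.422), and for dense bins of at least 50 positions it was -3.82. For all dense bins, the change of the difference since day 1 was -2.27 points (exact permutation p = 0.167, adjusted p = 0.233).

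Within the dense bins, the denser ones had the lower values. Bins of 50 or more positions (744) were below those of 40 to 49 (2945) in 7 of 7 libraries of days 3 to 11, with differences from -3.19 to -1.42 points (mean -2.67 ± 0.63, SD, n = 7). The exact permutation p was 0.0156, the smallest possible with 7 libraries, and the adjusted p was 0.0547, which does not pass 0.05. At day 1 the difference was 0.48 in one library and -0.73 in the other. Its change since day 1 was -2.54 points (exact permutation p = 0.0278, adjusted p = 0.0972). Among bins at 80% or more in control the mean difference over days 3 to 11 was -1.86 points. At days 9 and 11 the mean level was 29.5% ± 1.23 in bins of 40 to 44 positions, 27.5% ± 1.60 at 45 to 49, 26.8% ± 0.82 at 50 to 59 and 24.5% ± 2.93 in the 133 bins of 60 or more (SD, n = 4 libraries each). The first and the last of these classes overlapped between libraries, with 28.5% the lowest of the first and 28.8% the highest of the last. Within each library of days 9 and 11 the last was below the first. It was at 23.2%, 28.8%, 22.4% and 23.5%, against 28.7%, 31.2%, 28.5% and 29.5%. Of the 744 bins of 50 or more positions 379 were repeated, while 38.3% of all 3689 bins were. The parts of density and of repeated sequence in these differences were not told apart.

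Bins near gene starts lay lower still. The 879 methylated dense bins within 5 kb of a start stood at 73.0% and 72.3% in Dnmt1 KO at day 1 and at 21.7% to 25.1% at days 6 to 11. The distal bins were higher by 4.45 to 7.46 points in 7 of 7 libraries of days 3 to 11 (mean 5.78 ± 1.07, n = 7, exact permutation p = 0.0156, adjusted p = 0.0547). The distance was already 4.87 and 5.92 points at day 1, and with at least 50 positions its mean over days 3 to 11 was 2.31 points. Its sign depended on cytosines with over 20 calls in a library: with these kept, the mean difference was -6.86 points. The distal bins and their change since day 1 were then the same, and the near-start bins went from 879 to 883. The shift thus lay in the near-start bins.

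**Figure D3:**
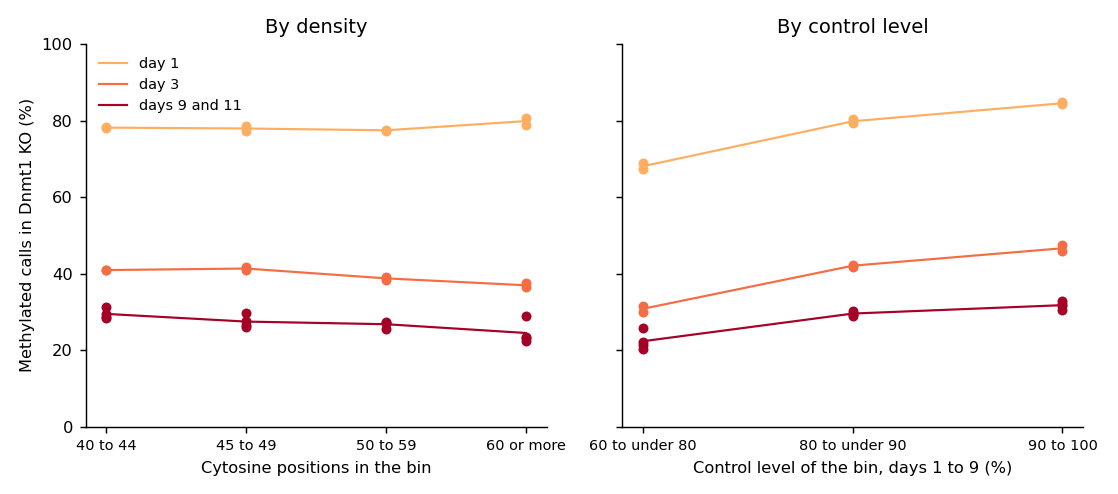
Percent of methylated calls in Dnmt1 KO at day 1, day 3 and days 9 and 11, by the number of cytosine positions in the bin (left) and by the control level that chose the bin (right). Each point is a library and lines join class means. Level at days 9 and 11 falls from 29.5% to 24.5% with density and rises from 22.3% to 31.8% with the control level.

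Bins with a higher control level were also higher in Dnmt1 KO. Bins at 60% to under 80% in control (1062) were at 68.1% at day 1 and 22.3% ± 2.37 at days 9 and 11, those at 80% to under 90% (1174) at 79.8% and 29.6% ± 0.57, and those at 90% or more (1453) at 84.5% and 31.8% ± 0.93 (SD, n = 4 at days 9 and 11). As a share of the day 1 level, what was left differed less, at 32.8%, 37.0% and 37.6%. At the limits themselves, 86 dense distal bins at 60% to under 62% in control were at 14.99% at days 9 and 11 and 90 bins at 58% to under 60% were at 14.1%. Distal bins with 40 or 41 positions (979) were at 29.5%, and those with 38 or 39 (1522) at 29.4%.

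Repeated bins started higher than single-copy bins, were lower within each library of day 9 and higher within each of day 11. In control at day 11 they were at 86.2% and 85.7%, against 74.7% and 75.8% in single-copy bins. In Dnmt1 KO they were at 84.2% and 83.8% at day 1 and at 45.6% and 46.9% at day 3, above single-copy bins at 74.5% and 75.7% and then 37.8% and 36.9%. At day 6 repeated bins were at 30.4% and single-copy bins at 27.5%. At day 9 they were at 26.5% and 28.4% against 28.2% and 30.98%, and at day 11 at 29.1% and 28.8% against 26.3% and 28.0%. Thus the distance between repeated and single-copy bins, 9.73 and 8.04 points at day 1 and 7.80 and 10.02 at day 3, changed sign at day 9 and was 2.77 and 0.75 at day 11.

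Averaged over days 3 to 11 the difference was 2.86 points ± 4.66 (n = 7, higher in 5 of 7 libraries, exact permutation p = 0.172, adjusted p = 0.241), and 1.66 points without Dnmt1 KO day 3 replicate 2. Its change since day 1 was -6.03 points (exact permutation p = 0.167, adjusted p = 0.233). Among bins at 80% or more in control it was -0.36 points. The largest repeat family followed the same course, at 84.6% and 84.4% at day 1, 45.3% and 47.3% at day 3 and 26.0% to 28.8% at days 9 and 11. In this family 33.2% of the day 1 level was left at days 9 and 11, compared with 37.8% in single-copy bins. The second family, of 71 bins, was at 17.5% to 27.1% in the same 4 libraries, the third, of 52 bins, at 27.6% to 34.6%, and the 154 other repeated bins at 29.2% to 31.8%, with 37.6% of their day 1 level left. Alignments that keep unique reads leave out the most alike copies, so repeated bins stand for those copies that reads can place.

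**Figure D4:**
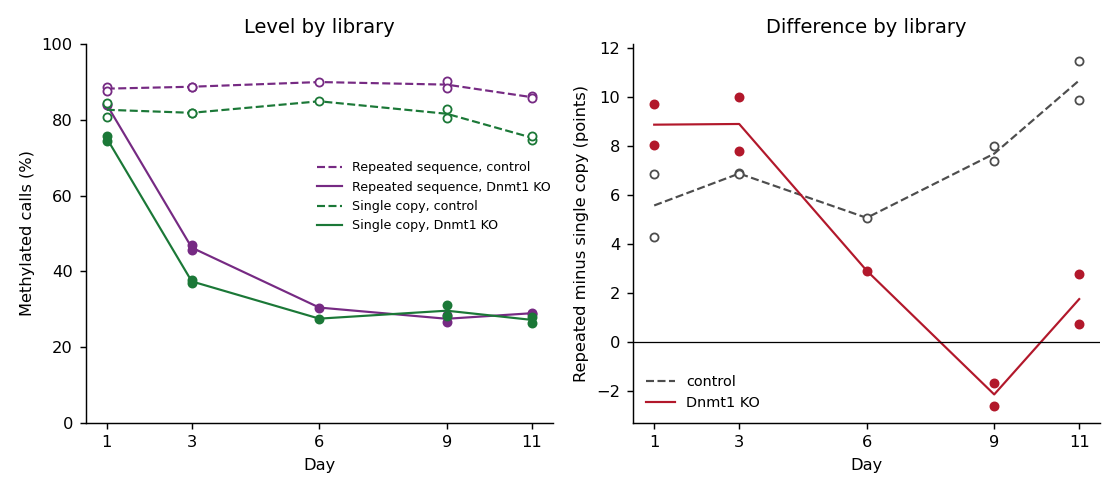
Left, percent of methylated calls by day in repeated (purple) and single-copy (green) dense distal bins, each point a library and lines joining day means, dashed for control. Right, repeated minus single-copy bins in percentage points. In control the difference is 4.30 to 11.47 points, and in Dnmt1 KO it goes from 9.73 and 8.04 at day 1 to between -2.59 and 2.92 from day 6.

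Differences by position and motif varied between days. Intergenic bins were at 80.4% and 81.1% at day 1 of Dnmt1 KO, against 75.8% and 76.2% inside genes, at 41.7% and 43.4% against 39.7% and 38.04% at day 3, and at 26.7% to 29.8% against 27.5% to 30.2% from day 6. Over days 3 to 11 they differed by 0.64 points ± 2.46 (n = 7, exact permutation p = 0.609, adjusted p = 0.711), and by -0.15 points without Dnmt1 KO day 3 replicate 2. This difference was -1.24 points among bins at 80% or more in control, -0.50 with bins weighted equally and 2.15 with at least 50 positions. Its change since day 1 was -4.11 points (exact permutation p = 0.083, adjusted p = 0.194). Exonic minus intronic bins had a mean of -2.25 points ± 3.28 (n = 7, lower in 5 of 7, exact permutation p = 0.141, adjusted p = 0.241). Without Dnmt1 KO day 3 replicate 1 this was -1.29 points, and among bins at 80% or more in control it was -0.33. The difference was -3.65 and -1.71 points at day 1, -7.99 and -5.13 points at day 3 and between -2.61 and 1.11 points from day 6. Bins with TGCCGC were above those without by 4.58 and 5.20 points at day 1 and by 3.45 and 4.18 points at day 3, and differed from them by -2.90 to -0.80 points from day 6. Over days 3 to 11 the mean difference was -0.23 points ± 2.86 (n = 7, exact permutation p = 0.875, adjusted p = 0.875), and without 1 of the libraries of days 6 and 9 it was 0.09 to 0.21. Its change since day 1 was -5.12 points (exact permutation p = 0.0278, the smallest possible, adjusted p = 0.0972). Repeated bins are more often intergenic, hold TGCCGC more often and seldom hold exon sequence, so these splits are not independent of each other. Of 317 repeated bins inside genes 15 were exonic, and of 1712 single-copy bins inside genes 1301 were. Among single-copy bins alone, bins with TGCCGC were at 75.1% at day 1 and 26.6% ± 1.53 at days 9 and 11, and bins without were at 75.1% and 28.9% ± 2.06 (n = 4 at days 9 and 11).

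Bins with high and low values at days 9 and 11 were read out at the other days. Of 2558 bins with at least 20 calls in those 4 libraries, 333 were at 50% or more and 399 at 10% or less. Chosen that way, they were at 56.4% to 63.1% and at 4.91% to 5.69% in these libraries. In the library of day 6, which took no part in the choice, the former were at 37.96% and the latter at 17.7%, with the 1826 bins between at 29.3%. At day 3 they were at 44.4% and 45.5%, against 32.6% and 30.9%, and at day 1 at 83.9% and 81.8%, against 71.1% and 72.2%. In control at day 11 the former were at 85.6% and the latter at 67.1%. So the order of the groups was the same at each day, and the distance between them, 53.8 points where they were chosen, was 20.2 points at day 6. Of 161 of the 333 bins with at least 10 calls at day 6, 59 (36.6%) were at 50% or more, compared with 19.3% of 1267 such bins among all 2558 and 7.04% of 213 among the 399. Repeated sequence made up 31.5% of the 333 bins, 33.6% of the 399 and 34.9% of the 2558, and exonic bins 41.1%, 35.6% and 37.3%.

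**Figure D5:**
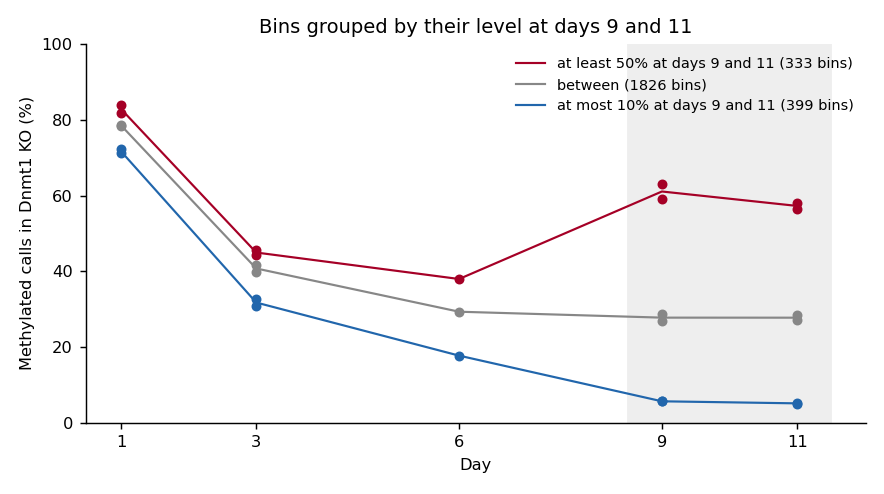
Percent of methylated calls in Dnmt1 KO by day for bins grouped by their pooled level at days 9 and 11 (shaded), each point a library and lines joining day means. The groups were formed in the shaded libraries. At day 6 they are at 37.96%, 29.3% and 17.7%.

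The highest and lowest single bins rested on few reads. Among 901 bins with at least 40 calls at days 9 and 11, 24 were at 60% or more and 10 at 0%. The intergenic bin on chromosome 6 shown above was at 75.5% of 53 calls (95% exact interval 61.7% to 86.2%, counting error only), with 69.2% of 13 and 81.3% of 16 calls in the libraries of day 9 and 58.3% and 91.7% of 12 calls each at day 11. It was at 82.8% of 29 calls at day 3 and 84.4% of 45 calls at day 1, and was not read at day 6. The next bins, on chromosomes 13, 12, 4 and 9, were at 72.5% to 75%. Those of chromosomes 13, 12 and 9 belong to the largest repeat family. At day 6 they were at 20% of 5, 6.82% of 44 and 50% of 8 calls, while the single-copy bin at chr4:152085000-152085499 was at 46.9% of 32 calls. The Emx1 bin was at 0 of 58 calls (exact upper limit 6.16%), after 8.33% of 12 calls at day 6 and 25% of 32 calls at day 1. It was one of the bins just inside the limit of the choice, at 60.7% in control. The others of the 5 lowest lay in Unkl, a zinc finger gene, in an intron of Gpsm1 and in 2 intergenic bins on chromosome 6, and 3 of these were in the largest repeat family. Control was not high at all of them at day 11: the bin at chr6:34142000-34142499 was at 0 of 40 calls there, and the bin at chr6:10640500-10640999 at 93.8% of 16 calls in one library and 0 of 19 in the other.

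Adjacent bins formed few runs. There were 3463 bins on their own, 94 runs of 2, 10 runs of 3 and 2 runs of 4 bins. The 2 longest, at chr1:172872000-172873999 and chr12:20238500-20240499, were intergenic and repeated, at 29.3% of 181 and 31.6% of 627 calls at days 9 and 11. The third, at chr4:155511000-155512499 near 9930005F22Rik, held 233 positions and was at 19.4% of 139 calls, of which 97, at 22.7%, were from Dnmt1 KO day 11 replicate 1, and the libraries ranged from 0% to 22.7% with a mean of 11.3%. Of the 12 runs of at least 3 bins, 9 were single-copy exonic sequence: 2 in Plec, and 1 each in Lrrc8a, Lrrc8b, Lrrc8d, Elfn1, Plxnb2, Kcnj12 and Pdzrn3. Plec encodes the cytoskeletal linker plectin, Plxnb2 a semaphorin receptor and Kcnj12 an inward rectifier potassium channel.

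The Lrrc8 runs, all 9 bins exonic throughout, were followed by library. Pooled over Lrrc8a, Lrrc8b and Lrrc8d, control at day 11 was at 98.1% and 85.1% and Dnmt1 KO was at 89.8% and 87.2% at day 1. It was at 54.7% and 50% at day 3 and at 57.1% of 98 calls at day 6. At days 9 and 11 the libraries were at 45.7%, 30.5%, 48.4% and 47.1%, in 51 to 82 calls each. Each of these values lay above that of all 3689 bins in the same library, which was 27.2% to 30.04%. In Dnmt1 KO day 9 replicate 2, however, 30.5% was close to the 30.04% of all bins. There it was below exonic bins at 30.6% and single-copy bins at 30.98%, and in the other libraries it was above both. These genes were picked out after their values were seen, so the comparison has no test. By gene, Lrrc8d was at 55.1% of 107 calls (exact interval 45.2% to 64.8%), Lrrc8b at 36.9% of 65 (25.3% to 49.8%) and Lrrc8a at 32.1% of 106 (23.3% to 41.8%). The intervals of Lrrc8a and Lrrc8b overlapped, and as library means their order was the other way, at 36.2% and 28.6%. The libraries of each gene were far apart. Lrrc8a was at 23.5% and 22% at day 9, below all 3689 bins, and at 61.1% of 18 and 38.1% of 21 calls at day 11, above them. Lrrc8b was at 31.3% of 16 and 0% of 9 calls at day 9 and at 30% of 10 and 53.3% of 30 at day 11. Lrrc8d was at 58.3% of 48, 60.9% of 23 and 47.2% of 36 calls and was not read in Dnmt1 KO day 11 replicate 2, so the pooled value of that library rests on the other two genes. The other exonic runs, pooled over days 9 and 11, were at 15.3% of 196 and 43.5% of 62 calls in Plec, 35.4% of 79 in Plxnb2, 46.9% of 49 in Elfn1, 42.5% of 73 in Pdzrn3 and 41.3% of 63 in Kcnj12. These also rest on libraries that differed, from 0% of 16 to 100% of 6 calls in Kcnj12, and in Elfn1 on the libraries of day 11 alone, at 69.6% and 26.9%. Lrrc8c and Lrrc8e held no such bin.

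Of 1533 genes with a bin in their body, 1207 had 1. The most, 47, lay in Gm20388, a gene model of chromosome 8 that spans many other genes, at 30.5% of 1573 calls at days 9 and 11. Next came 15 bins in the gene annotated as Pcdha11, within the alpha cluster of protocadherins, which are neuronal adhesion proteins. These were at 4.3%, 5.6%, 3.7% and 5.7% in the 4 libraries of days 9 and 11 and at 5.08% of 197 calls at day 6, after 74.8% and 68.3% at day 1, and were thus below the level of all 3689 bins in each of these libraries. At day 3 they were at 51.9% of 54 calls, above all bins, and at 26.9% of 212. In control at day 11 they were at 67.4% and 65.1%, also below all bins. The distance of these 15 bins to single transcript starts was not looked up. Plec had 13 bins at 14.5% to 31.5%, and Fat1, a giant cadherin, had 10 at 26.3% to 33.98%. Prdm16, Zfhx3, Spen, Tiam1, Cdc42bpb and Cux2, with 6 to 10 bins each, had library means from 21.8% ± 7.98 in Cux2 to 43.4% ± 11.49 in Cdc42bpb (SD, n = 4 libraries), and libraries of one gene differed by up to 31.7 points.

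Imprinted genes, whose parental copies differ in methylation, were also looked up. Of 36 genes of an imprinted list, 34 were in the annotation and 11 had a bin inside or within 20 kb, 12 bins in all. Together these were at 82.6% and 81.8% in control at day 11, at 88.3% and 88.9% at day 1 of Dnmt1 KO, at 36.7% and 30% at day 3 and at 25.2% of 206 calls at day 6. At days 9 and 11 the libraries were at 25.2%, 17.9%, 28.2% and 24.6%. All 3689 bins were at 27.6%, 30.04%, 27.2% and 28.3% in the same libraries. The 12 bins were thus lower in each except Dnmt1 KO day 11 replicate 1. At day 1 of Dnmt1 KO all 3689 bins were at 77.8% and 78.3%, below the 12 bins. In control at days 1 to 9 the 12 bins were at 89.3%. The choice of bins required a high control level, and calls were not separated by parental copy. Whether any of the 12 bins lay in a region methylated on a single parental copy was not tested. These values therefore do not show how such regions changed. The bins inside zinc finger genes, 59 in 39 genes, were at 74.7% and 75.6% at day 1 and at 22.2%, 26.6%, 17.5% and 22.4% at days 9 and 11, each below the level of all 3689 bins in the same library. Their control level of days 1 to 9, 78.7%, was also below the 84.7% of all bins.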

How the data were processed

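WGBS-seq of 18 ESC libraries was analysed, grouped by the labelled genotype and day. The authors trimmed reads, aligned them with Bismark (0.12.3 in the submitters' processing notes) to NCBIM37, removed duplicates and extracted CpG calls. The deposited tables hold counts of methylated calls and of unmethylated calls per cytosine, and a deposited percent that equals their ratio. No normalization was applied. Libraries held 7190722 to 11158414 calls, 1.20 to 1.25 per listed cytosine, and 21696 to 42546 of them lay in the bins studied.

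From 36978985 autosomal cytosines, 1842 with over 20 calls in any library were dropped, the rest were summed in 500 bp bins, and GENCODE vM1 gene starts were used. The bins, the gene lists and the tests were chosen with earlier results of these data known. A level is methylated calls over all calls of a set in a library. Differences between sets over the 7 Dnmt1 KO libraries of days 3 to 11 were tested by two-sided exact sign-flip permutation, adjusted over 7 comparisons, and days by exact permutation over 9 libraries. Bins were tested with a quasi-binomial likelihood ratio F test, with the dispersion over all 18 libraries moderated by limma 3.58.1 in R 4.3.3. Fits with the prior set by density and apart for bins under 20% methylated (density prior), or with a trend in density alone, were added after the data were seen. On simulated data with bins lowered by 40 points and the dispersions of the density prior, the test called 49.5% of lowered and 1.8% of unchanged dense bins for the first comparison, and with the density prior 28.3% and 0.469%. For day 11 these were 31.8% and 1.39%, and 14.9% and 0.428%. Because the draws took their spread from the density prior, these shares cannot choose between the fits. Single regions have 95% exact (Clopper-Pearson) intervals, which cover counting error only, since calls of a read are not independent. Regions were named by rank: longest runs, highest and lowest levels with at least 40 calls, and genes with most bins. Alternatives covered the limits of the choice, weighting, filters, the test and leaving out each library.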

Additional observations from a re-analysis of the deposited data

How the results depend on the processing

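Of 95 alternative values 82 kept their direction and side of the threshold (counts: within 1.5 times), as did 57 of 69 with a library left out. The 7 differences between sets already had an adjusted p above 0.05. The smallest sign-flip permutation p with 7 libraries is 0.0156, so passing 0.05 after adjustment took several comparisons at that limit. For these differences, keeping the side of the threshold is therefore no sign of stability. For Dnmt1 KO days 3 to 11 minus day 1, the replicate block gave -46.26 points at an exact p of 0.05, and leaving out a library gave -47.71 to -45.50, with p = 0.125 without either library of day 1. The number of bins lower at days 6 to 11 than at day 1 was 984 with at least 20 calls on each side, 1132 with limma, 1130 with limma and the replicate block, 1573 with the density prior, 1611 with a density trend in the prior, and 875 to 1729 without a library. The number lower than control at day 11 was 358 with at least 20 calls, 1129 with limma, 1081 with the block, 834 with the density prior, 927 with the trend, and 497 to 550 without a library. With 2 libraries a side, fewer libraries leave fewer bins that can be tested. Apart from the density prior, the share of all bins called lower was not counted for these alternatives. Their numbers therefore give no comparison with the background. Differences between replicates correlated at -0.01 to 0.0062 over bins between 28 pairs of groups. With few calls in a bin, such correlations cannot show whether replicate numbers pair the libraries. Distal minus near-start bins reversed to -6.86 points with cytosines over 20 calls kept, a shift that lay in the near-start bins. Repeated minus single-copy bins reversed to -0.36 points at a control level of at least 80%, and their change since day 1 was -6.03. Intergenic minus genic bins reversed to -1.24 points at that level, -0.50 with bins weighted equally, and -4.11 as a change since day 1, and lay between -0.15 and 1.00 without a library. Exonic minus intronic bins changed by 0.44 points since day 1. With at least 50 positions the differences to less dense and to near-start bins were -3.82 and 2.31 points. Those of repeated minus single-copy, exonic minus intronic and intergenic minus genic bins were then 5.06, -4.51 and 2.15. At a control level of at least 80%, TGCCGC bins minus others were at -1.36 points. TGCCGC bins minus others were at 0.044 points with equal weights and between -0.97 and 0.21 without a library, reversed without Dnmt1 KO day 6 (0.12), day 9 replicate 1 (0.21) or day 9 replicate 2 (0.09). The cause of these changes was not tested. Of the 3689 bins 68 had no call at days 9 and 11 and 1131 had under 20, so the named order of single bins rests on few calls.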
